A study of Mus musculus with 8 samples.

Results

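The 33 genes described here encode the machinery of asparagine N-linked glycosylation, and all 33 were measured among the 22180 genes of the arrays. They were followed from the assembly of the lipid-linked glycan (15 genes) through its transfer by the oligosaccharyltransferase (6 genes) and the calnexin cycle (7 genes) to trimming in the Golgi (5 genes). Expression was measured in EMS404, a mouse line of myofibroblastic hepatic stellate cells (MF-HSCs), the scar-forming cells of the fibrotic liver. Cells received by lipofection 20 nM of either siBNC2, a small interfering RNA against the zinc finger transcription factor Basonuclin 2, or siCTRL, a non-targeting control, and were harvested after 48 h, with 4 arrays per group. Both groups therefore share the cell line, the transfection and the medium, and the model is limited to 1 cell line and 1 siRNA. The members were selected on the same comparison of siBNC2 with siCTRL that is described below, since the wider pathway had come out lower in siBNC2 on these arrays. Their differences between the groups are for that reason given as a description, with no test.

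Most secreted and membrane proteins receive N-linked glycans as they enter the endoplasmic reticulum (ER). A branched oligosaccharide is built sugar by sugar on the lipid dolichol, on both faces of the ER membrane, and is then moved as a whole onto an asparagine of the nascent chain. Glucosidases trim it so that the lectins calnexin and calreticulin can hold the protein while it folds, and Golgi enzymes later remodel what is left. Procollagens and integrins, which myofibroblasts make in bulk, are among the proteins modified in this way.

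Values are log2 intensities after the authors' robust multi-array normalization (RMA), and they compare a gene between arrays but not genes with each other. Bnc2 itself read 7.07, 6.78, 6.72 and 8.18 in siBNC2, replicates 1 to 4, against 8.26, 8.41, 8.37 and 9.03 in siCTRL. The groups did not overlap, with a difference of −1.33 ± 0.31 (SE of limma) and p = 0.0286 by an exact two-sided permutation test, the smallest that 4 against 4 arrays allow. The adjusted p of limma over all genes was 1.00. Replicate 4 was thus the siBNC2 array with the most Bnc2 left. Of 10 stellate cell and myofibroblast markers, 9 lay above 5.66, the level under which a gene is called dim here (the 40th percentile of mean levels), and Lrat, an enzyme of vitamin A storage, lay below it. Des, at a mean of 5.88, lay close above the dim level. Above that level were 2 of 7 hepatocyte (Apoa1 and Hnf4a) and 2 of 5 cholangiocyte markers (Epcam and Sox9). So were 2 of 7 macrophage (Clec4f and Cd68) and 3 of 7 endothelial markers (Pecam1, Kdr and Lyve1). Cd68 read 8.77 in siBNC2 and 8.79 in siCTRL on average, and Sox9 7.45 and 6.92. The hepatocyte genes Alb and Ttr, the cholangiocyte keratins Krt7 and Krt19, the macrophage genes Adgre1 and Csf1r and the endothelial genes Cdh5 and Stab2 were all dim. The mean level of the hepatocyte markers ranged from 5.04 to 5.28 over siBNC2 arrays and from 5.02 to 5.30 over siCTRL arrays. The macrophage markers ranged from 5.40 to 5.72 in siBNC2 and from 5.38 to 5.66 in siCTRL, and the endothelial markers from 5.10 to 5.37 in siBNC2 and from 5.11 to 5.26 in siCTRL. The cholangiocyte markers, at 5.70 to 5.86 in siBNC2 and 5.56 to 5.65 in siCTRL, were higher on every siBNC2 array, with Sox9 at 0.53 ± 0.23 and Krt19 at −0.09 ± 0.11, and their part in the differences given below was not tested. The stellate cell markers ranged from Col1a2 at −0.38 ± 0.19 to Tagln at 0.51 ± 0.61, and the other lists from Alb at −0.18 ± 0.20 to Ttr at 0.34 ± 0.17, from Adgre1 at −0.11 ± 0.13 to Csf1r at 0.15 ± 0.13 and from Clec4g at −0.23 ± 0.18 to Emcn at 0.23 ± 0.15. In such bulk samples fewer cells of a type and less RNA per cell cannot be told apart. Replicates were independent according to the study, which handled the compared groups side by side in every round. The errors given here treat the groups as unpaired, so they cover the spread between such replicates of the line, including any spread between rounds.

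Some promoters of the members carried the ER stress response element (ERSE), the site through which ATF6 and XBP1 are known to act on ER folding genes. It reads CCAAT, then 9 bases of any kind, then CCACG, and was searched on both strands from 250 bases before to 50 bases after each annotated start (RefSeq, GRCm38.p6). A promoter was listed for 30 of the 33 members (not for Dpagt1, Alg2 and Alg11). The element was present for 3 of these 30 genes, or 10%, against 37 of 27025 genes, or 0.137%, in the whole table. They were the lectin genes Calr and Canx of the calnexin cycle and Alg12, a mannosyltransferase of glycan assembly. The promoters are printed because these genes share a feature that played no part in their selection. Capitals mark the 19 bases of the element, which lies 162 to 144 bases before the start of Calr (on the opposite strand), 145 to 127 bases before that of Canx and 220 to 202 bases before that of Alg12.
Calr, chr8:84846882-84847181, minus strand: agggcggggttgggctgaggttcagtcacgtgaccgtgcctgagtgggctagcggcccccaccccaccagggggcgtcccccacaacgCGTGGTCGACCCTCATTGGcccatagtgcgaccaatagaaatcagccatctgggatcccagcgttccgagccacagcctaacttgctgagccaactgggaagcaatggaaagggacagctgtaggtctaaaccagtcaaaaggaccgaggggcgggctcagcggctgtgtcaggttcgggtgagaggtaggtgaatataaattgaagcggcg
Canx, chr11:50325624-50325923, minus strand: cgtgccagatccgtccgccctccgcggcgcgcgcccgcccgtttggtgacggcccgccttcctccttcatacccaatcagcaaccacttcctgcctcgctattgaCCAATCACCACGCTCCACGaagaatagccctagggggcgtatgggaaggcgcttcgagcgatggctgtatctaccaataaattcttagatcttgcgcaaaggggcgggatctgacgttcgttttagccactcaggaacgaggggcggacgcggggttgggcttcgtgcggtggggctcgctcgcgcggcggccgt
Alg12, chr15:88819269-88819568, minus strand: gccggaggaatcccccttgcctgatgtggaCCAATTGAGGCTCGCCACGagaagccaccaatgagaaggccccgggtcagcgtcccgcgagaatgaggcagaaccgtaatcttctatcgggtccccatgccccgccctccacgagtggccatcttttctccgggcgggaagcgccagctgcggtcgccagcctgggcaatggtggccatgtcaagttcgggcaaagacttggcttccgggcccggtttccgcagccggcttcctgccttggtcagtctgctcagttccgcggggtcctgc

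ERSE-II (ATTGG, 1 base, CCACG), the core of the unfolded protein response element (TGACGTGG) and the C/EBP-ATF element bound by ATF4 (TGATGNAAT) were found in 0 of the 30 genes. Of all genes, 0.0444%, 0.714% and 1.08% carried them, shares so low that 0 of 30 is no sign of a lack. Among 14 other ER chaperone and ER-associated degradation (ERAD) genes with a listed promoter, 6 held an ERSE, namely Hspa5, Hsp90b1, Pdia6, Dnajc3, Syvn1 and Creld2. Of the same 14, Dnajb11 and Herpud1 held ERSE-II. By contrast, an ERSE was found in 0 of 6 oligosaccharyltransferase and 0 of 5 Golgi members. It was also found in 0 of 15 other genes for sugar donors and dolichol and 0 of 11 for ER quality control. Further oligosaccharyltransferase subunits had 0 of 4, and other Golgi enzymes and sugar transporters 0 of 13. Krtcap2, 1 of those 4 subunits, held ERSE-II. A match describes the letters in this window and is not a measured binding site.

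In siBNC2, 24 of the 33 members had a lower mean and 9 a higher one, where 48.1% of all 22180 genes had a lower mean. All members lay above the dim level, and among the 13308 genes above that level the share with a lower mean was 52.3%. The median difference (siBNC2 minus siCTRL) was −0.10 over the members and 0.0074 over all genes. Differences were small, from −0.48 for Man1a to 0.17 for Dad1. Under 0.25 in size were 29 of 33 members and, much alike, 19137 of the 22180 genes. The 4 other members were Man1a, Uggt1, Prkcsh and Alg12, all lower. That is near the share of all genes, 13.7%, that differed by 0.25 or more in either direction. With limma, 0% of all genes passed an adjusted p of 0.05, so 0 members were called, and 708 genes had an unadjusted p under 0.05. The 4 siBNC2 arrays lay below all 4 siCTRL arrays for 2 members, Uggt1 and Prkcsh, as they did for 0.798% of all genes. They lay above them for 0 members and for 1.36% of all genes. Since the members were chosen by this same contrast, these counts describe them and are not evidence of a change.

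**Figure D1:**
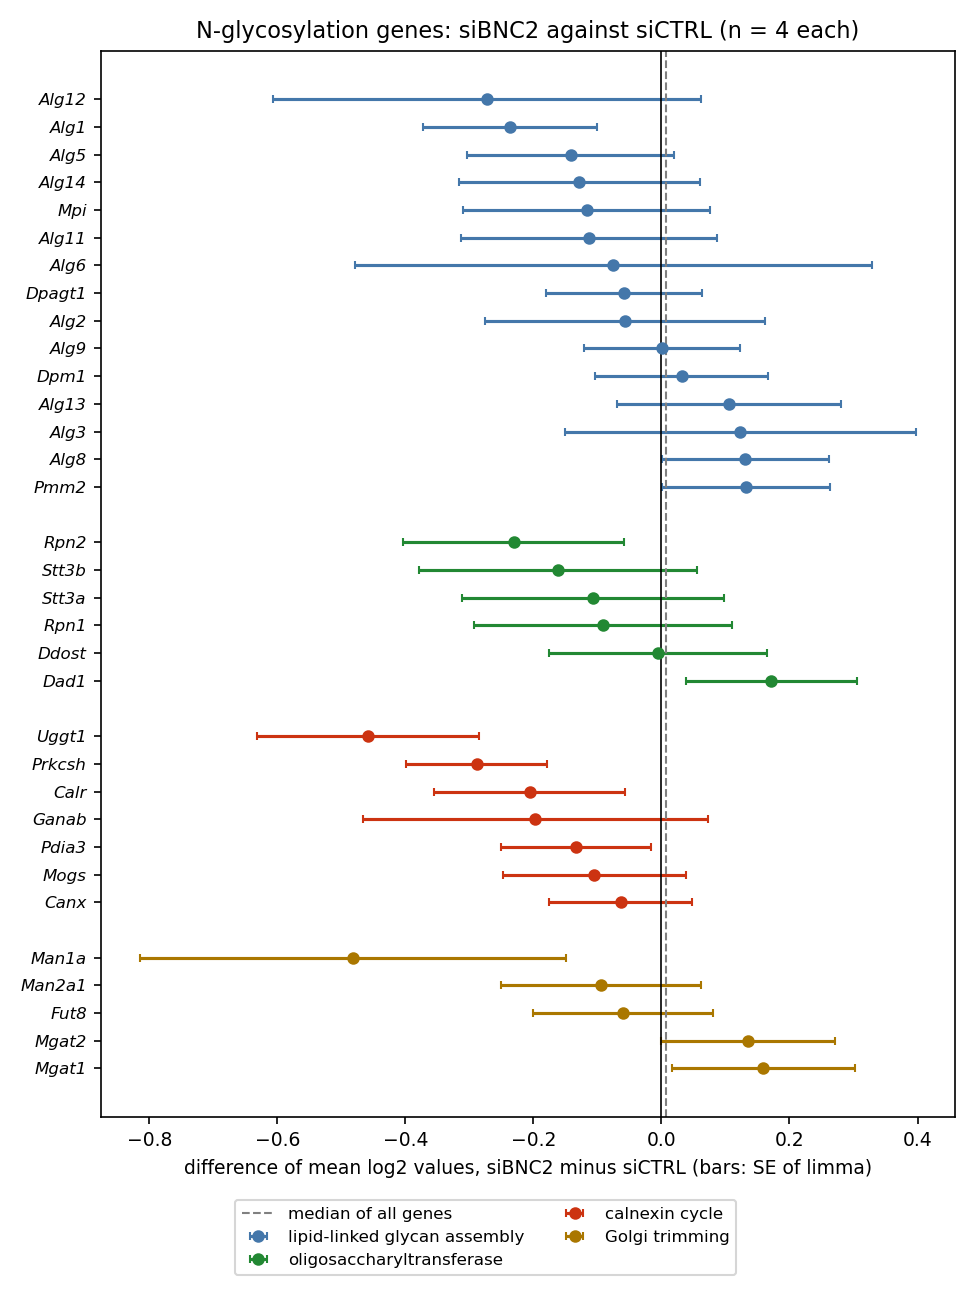
Difference in mean log2 value, siBNC2 minus siCTRL (n = 4 arrays each), for the 33 members grouped by step, with bars for the SE of limma, a solid line at 0 and a dashed line at the median of all genes. All 7 calnexin cycle genes lie left of 0, and Man1a and Uggt1 lie farthest left.

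The count of members with a lower mean ranged from 20 to 25 when any single array was left out. The median of the members ranged from −0.16 without siCTRL replicate 1 to −0.019 without siCTRL replicate 3, and leaving out siBNC2 replicate 1, siBNC2 replicate 3 or siCTRL replicate 4 gave −0.024, −0.059 and −0.048. Of the 33 members, 14 changed the sign of their difference when some array was left out. Among the 19 that did not, 13 were lower and 6 higher. The size of the typical difference thus moved with single arrays of both groups. The calnexin cycle was the step for which the sign held in each of its 7 members. The share of all genes that kept their sign was not computed. These arrays also served to choose the members, so the counts only describe them.

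The calnexin cycle had a median difference of −0.20, and all 7 of its genes had a lower mean in siBNC2. That median stayed below 0 without any one array, from −0.28 without siBNC2 replicate 4 to −0.11 without siCTRL replicate 3, with −0.12 when siBNC2 replicate 3 was left out. Uggt1 encodes the folding sensor that puts a glucose back on the glycan of a misfolded protein and so returns it to the lectins. It read 12.74, 12.66, 12.46 and 12.86 in siBNC2 replicates 1 to 4, against 12.92, 12.93, 13.62 and 13.09 in siCTRL. Every siBNC2 array lay below every siCTRL array, although siBNC2 replicate 4 and siCTRL replicate 1 were only a little apart, and siCTRL replicate 3 was the highest of all. The difference was −0.46 ± 0.17 (SE), a mean 1.37-fold lower, and −0.30 without siCTRL replicate 3.

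Prkcsh, the regulatory beta subunit of glucosidase II, was the other gene whose groups did not overlap. Its values were 12.72, 12.83, 12.89 and 12.78 in siBNC2, against 13.03, 13.18, 12.96 and 13.20 in siCTRL. The spread was narrow, with an SD of 0.07 in siBNC2 and 0.12 in siCTRL. The difference of −0.29 ± 0.11 was 1.22-fold and ranged from −0.33 to −0.25 when single arrays were left out. Ganab, the catalytic subunit of the same enzyme, was singled out after its values were seen because it pairs with Prkcsh. It read 12.82, 13.33, 12.90 and 13.90 in siBNC2, against 12.89, 13.37, 13.86 and 13.62 in siCTRL. The 2 groups overlapped over nearly their whole range, and the difference of −0.20 ± 0.27 was smaller than its error, ranging from −0.42 to −0.06 when single arrays were dropped. Of this enzyme, then, one subunit had groups apart and the other a spread that covered its difference.

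Calr encodes calreticulin, the soluble lectin of the ER lumen. Its log2 values were 17.94, 18.06, 17.72 and 18.31 in siBNC2, against 18.02, 18.15, 18.35 and 18.34 in siCTRL, a difference of −0.21 ± 0.15. The groups overlapped, and the difference was −0.31 without siBNC2 replicate 4 and −0.11 without siBNC2 replicate 3. Canx encodes the membrane-bound lectin calnexin and read 17.09, 17.18, 17.21 and 17.31 in siBNC2, against 17.14, 17.20, 17.40 and 17.29 in siCTRL. The groups overlapped, and the difference was −0.06 ± 0.11, from −0.10 to −0.02 when single arrays were dropped. Pdia3 (ERp57), the thiol oxidoreductase that works on proteins bound to these lectins, read 17.42, 17.52, 17.48 and 17.65 in siBNC2, against 17.47, 17.61, 17.77 and 17.75 in siCTRL. Its difference of −0.13 ± 0.12 was again of the size of its error. Mogs, the glucosidase that removes the outermost glucose, differed by −0.10 ± 0.14. Calr and Canx, the lectin genes with an ERSE, had overlapping groups, and neither Uggt1 nor Prkcsh held the element in the window searched. Of the ER chaperone and ERAD genes with an ERSE, Hspa5, Hsp90b1, Pdia6, Dnajc3 and Syvn1 differed by −0.22, −0.19, −0.24, −0.25 and −0.25. Creld2, the last of them, differed by 0.02. The whole list of 15 ER chaperone and ERAD genes had a median of −0.20. It ranged from Sel1l at −0.49 to Manf at 0.10, neither of which was among the genes with an ERSE. Any tie between the element and the differences was not tested.

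**Figure D2:**
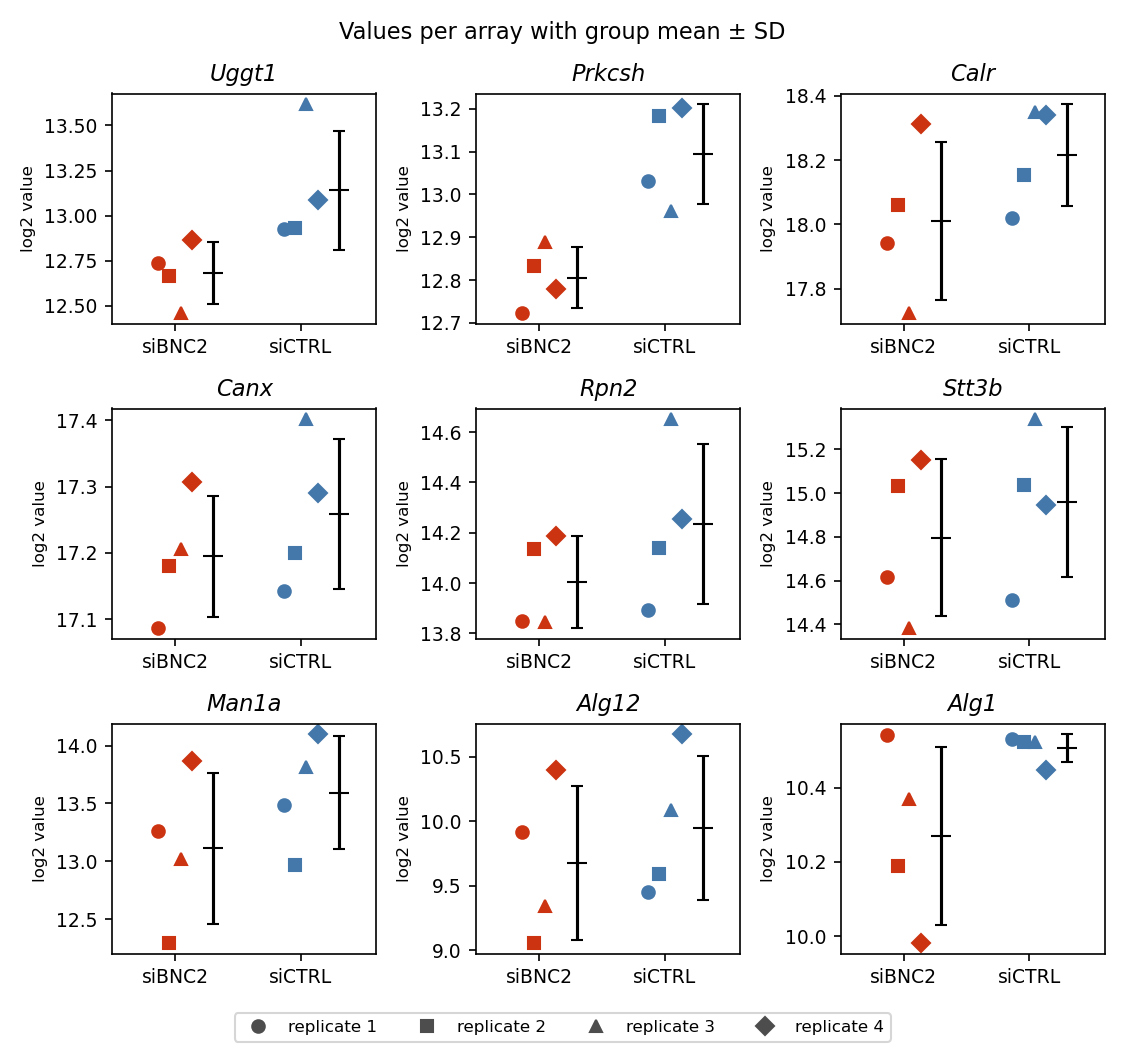
Log2 values of 9 members on each array (marker shape gives the replicate number), siBNC2 left and siCTRL right, with the group mean ± SD (n = 4) beside the points. Uggt1 and Prkcsh have no overlap between the groups, while the other 7 do, and axes differ between panels.

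The oligosaccharyltransferase had 5 of 6 subunits with a lower mean and a median of −0.10. That median was near 0 when siCTRL replicate 3 (0.0011), siBNC2 replicate 1 (−0.0013), siBNC2 replicate 3 (−0.017) or siCTRL replicate 4 (−0.025) was dropped, and −0.23 when siCTRL replicate 1 or siBNC2 replicate 4 was. It was −0.16 with both arrays numbered 4 left out. The complex has alternative catalytic subunits, of which STT3A works at the translocon and STT3B on sites that were skipped there. Stt3a read 16.05, 16.36, 16.18 and 16.80 in siBNC2, against 16.06, 16.33, 16.80 and 16.63 in siCTRL. The groups covered nearly the same range. The difference was −0.11 ± 0.20, or 0.0079 with siCTRL replicate 3 dropped and −0.26 with siBNC2 replicate 4 dropped. Stt3b read 14.62, 15.03, 14.38 and 15.15 in siBNC2, against 14.51, 15.04, 15.34 and 14.94 in siCTRL. The lowest and the highest siCTRL arrays enclosed all siBNC2 arrays but replicate 3, and the difference was −0.16 ± 0.22. It rested on single arrays, at −0.02, −0.03 and −0.31 when siBNC2 replicate 3, siCTRL replicate 3 or siCTRL replicate 1 was dropped.

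Rpn2, a subunit shared by both forms of the complex, had the lowest difference of the 6. It read 13.85, 14.14, 13.84 and 14.19 in siBNC2, against 13.89, 14.14, 14.65 and 14.25 in siCTRL. The difference of −0.23 ± 0.17 became −0.09 without siCTRL replicate 3, the array that stood highest. Dad1, a small subunit whose loss triggers cell death, went the other way, with 17.60, 17.37, 17.27 and 17.22 in siBNC2, against 17.17, 17.23, 16.99 and 17.39 in siCTRL. The groups overlapped, and the difference was 0.17 ± 0.13, the highest of all members. The remaining shared subunits Rpn1 and Ddost differed by −0.09 ± 0.20 and −0.0055 ± 0.17, and both changed sign without some array.

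Glycan assembly was split, with 9 of 15 genes lower and 6 higher in siBNC2 and a median of −0.06. Dropping siCTRL replicate 1 moved that median to −0.12, dropping siCTRL replicate 4 to 0.018 and dropping siBNC2 replicate 1 to 0.00083. It was −0.019, −0.0046 and −0.013 when siCTRL replicate 3, siBNC2 replicate 2 or siBNC2 replicate 3 was dropped. Among the genes that supply sugars, Pmm2 (phosphomannomutase) differed by 0.13 ± 0.13, Mpi (mannose phosphate isomerase) by −0.12 ± 0.19 and Dpm1 (the catalytic subunit of dolichol phosphate mannose synthase) by 0.03 ± 0.13. Alg5, which makes the dolichol-bound glucose donor, read 11.31, 11.79, 11.73 and 11.89 in siBNC2, against 11.56, 11.93, 12.05 and 11.74 in siCTRL. Its groups overlapped, with a difference of −0.14 ± 0.16 that became −0.02 with siBNC2 replicate 1 dropped, −0.07 with siCTRL replicate 3 dropped and −0.23 with siCTRL replicate 1 dropped. Dpagt1 starts the pathway by placing the first sugar on dolichol phosphate and is the target of tunicamycin. It read 13.62, 13.52, 13.28 and 13.48 in siBNC2, against 13.35, 13.59, 13.58 and 13.62 in siCTRL, and the difference of −0.06 ± 0.12 was 0.0073 without siBNC2 replicate 3.

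On the cytosolic face, the next sugars are added by Alg13 with its membrane anchor Alg14 and by the mannosyltransferases Alg1, Alg2 and Alg11. Alg1 read 10.54, 10.19, 10.37 and 9.98 in siBNC2, against 10.53, 10.52, 10.52 and 10.45 in siCTRL. The siCTRL arrays were almost level (SD 0.04), and all siBNC2 arrays but replicate 1 lay below them, for a difference of −0.24 ± 0.14. The other 4 genes of that face differed by −0.13 ± 0.19 (Alg14), −0.11 ± 0.20 (Alg11), −0.06 ± 0.22 (Alg2) and 0.11 ± 0.18 (Alg13). In the lumen, Alg3, Alg9 and Alg12 add the further mannoses. Alg12 read 9.92, 9.05, 9.34 and 10.39 in siBNC2, against 9.45, 9.59, 10.08 and 10.68 in siCTRL. It had a wide spread within both groups, and its difference of −0.27 ± 0.33 was −0.03 without siCTRL replicate 4 and −0.51 without siBNC2 replicate 4. Alg3 differed by 0.12 ± 0.27 and Alg9 by 0.0010 ± 0.12, whereas the glucosyltransferases Alg6 and Alg8 differed by −0.08 ± 0.40 and 0.13 ± 0.13. None of the 15 assembly genes had groups apart.

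In the Golgi, 3 of 5 genes had a lower mean, with a median of −0.06. With siCTRL replicate 3, siCTRL replicate 4 or siBNC2 replicate 1 dropped it was 0.0067, 0.0079 and −0.0099, and with siCTRL replicate 1 or siBNC2 replicate 4 dropped −0.14 and −0.12. Man1a, a mannosidase that trims the glycan on arrival, read 13.27, 12.29, 13.02 and 13.87 in siBNC2, against 13.49, 12.97, 13.81 and 14.10 in siCTRL. Its difference of −0.48 ± 0.33, 1.40-fold, was the most negative of all members, but the groups overlapped, and dropping siBNC2 replicate 2, siBNC2 replicate 4 or siCTRL replicate 4 gave −0.21, −0.73 and −0.31. Mgat1, which starts hybrid and complex glycans, read 7.70, 7.92, 7.70 and 7.60 in siBNC2, against 7.29, 7.62, 7.85 and 7.53 in siCTRL. Mgat2, which adds the next branch, read 12.23, 12.46, 12.18 and 12.13 in siBNC2, against 11.82, 12.23, 12.24 and 12.17 in siCTRL. Both had the higher mean in siBNC2, by 0.16 ± 0.14 and 0.14 ± 0.14, with overlapping groups, and by 0.06 and 0.04 with siCTRL replicate 1 dropped. Fut8, the enzyme of core fucose, read 10.99, 11.07, 11.04 and 11.29 in siBNC2, against 10.92, 11.01, 11.34 and 11.36 in siCTRL, and differed by −0.06 ± 0.14. Man2a1, the mannosidase that acts after Mgat1, differed by −0.10 ± 0.16.

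The order of the arrays within each group recurred over many members. In siBNC2, replicate 4 was the highest of the 4 arrays for 21 of 33 members, as it was for 31.4% of all genes. In siCTRL, replicates 3 and 4 were each the highest for 14 members (23.8% and 27.2% of all genes), and replicate 1 was the lowest for 18 (28.4%). Averaged over the members, the log2 value relative to the mean of the 8 arrays was −0.11, −0.08, −0.13 and 0.14 in siBNC2 replicates 1 to 4, against −0.13, −0.03, 0.17 and 0.16 in siCTRL. Thus siBNC2 replicate 4 stood with the upper siCTRL arrays and siCTRL replicate 1 with the lower siBNC2 arrays. For the calnexin cycle alone these values were −0.18, −0.10, −0.18 and 0.05 in siBNC2, against −0.07, 0.04, 0.27 and 0.17 in siCTRL, so that the groups overlapped only through siBNC2 replicate 4. Bnc2 itself was highest on replicate 4 of each group, at 8.18 in siBNC2 and 9.03 in siCTRL. Its part in this order was not tested.

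**Figure D3:**
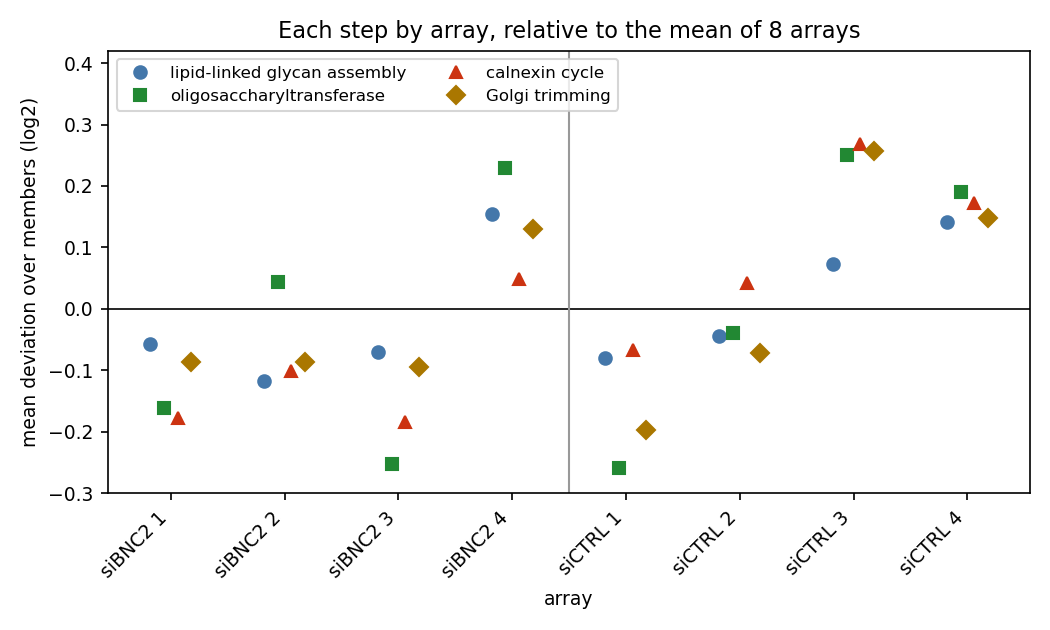
Mean deviation of the log2 value from the mean of the 8 arrays (vertical axis, log2) for each of the 4 steps on each array, siBNC2 replicates left and siCTRL replicates right. On siBNC2 replicate 4 every step lies above 0, on siCTRL replicate 1 every step lies below 0, and siCTRL replicate 3 is the highest array for 3 of the steps.

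The widest spread belonged to Alg6, and Alg3 was spread widely too. Alg3 read 13.62, 12.98, 13.17 and 12.27 in siBNC2, against 13.07, 13.03, 13.07 and 12.37 in siCTRL. The arrays numbered 4 were the lowest of each group. Alg6 read 9.43, 9.87, 9.81 and 11.44 in siBNC2, against 9.87, 9.77, 10.56 and 10.65 in siCTRL. Its siBNC2 replicate 4 lay above every other array, and the difference was −0.51 without it. These genes were singled out after their values were seen. The median SD within a group was 0.24 over the members and 0.23 over all genes.

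**Figure D4:**
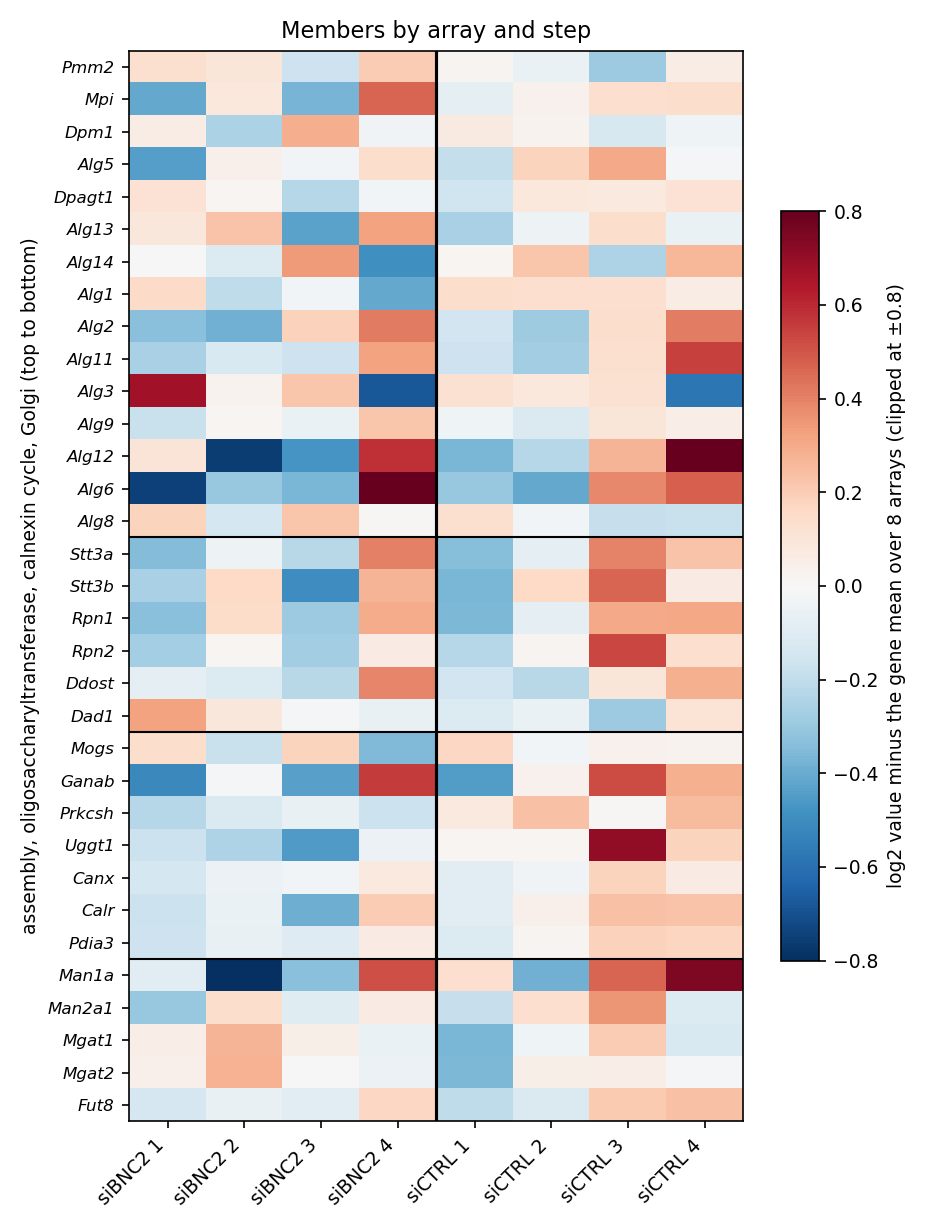
Log2 value of each member (rows, ordered by step, assembly at the top and Golgi at the bottom) on each array, minus the mean of that gene over the 8 arrays, with siBNC2 replicates left and siCTRL replicates right of the line. Red is above and blue below the mean of the gene. Alg12, Alg6 and Man1a vary most between arrays of one group, and the calnexin cycle is mostly blue on siBNC2 replicates 1 to 3.

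Genes of the same pathway that are no members showed a like pattern of small differences. The wider pathway was known to be lower on these arrays, so the counts and p-values below are description and no independent support. Of 54 such genes, 41 had a lower mean in siBNC2 and 13 a higher one, with a median of −0.10. With limma 0 of the 54 passed over all genes, and 2 had an unadjusted p under 0.05, both lower, where 3.19% of all genes had one. The share with a lower mean stands beside 52.3% of the genes above the dim level, and 25 of the 54 changed sign when some array was left out. ER quality control genes other than members had 13 of 14 lower, with a median of −0.14. Mlec, the lectin malectin that binds glycans with their glucoses partly trimmed, read 13.08, 12.25, 12.43 and 13.99 in siBNC2, against 12.76, 13.08, 13.59 and 14.52 in siCTRL. Its difference of −0.55 ± 0.44 ranged from −0.91 to −0.21 when single arrays were left out. Uggt2, the paralog of Uggt1, differed by 0.0072 ± 0.16 and was the only gene of that list with a higher mean.

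Further subunits of the oligosaccharyltransferase were evenly divided, 3 lower and 3 higher, with a median of −0.05. Magt1, an oxidoreductase subunit of the STT3B form, read 12.68, 12.83, 12.54 and 13.37 in siBNC2, against 13.17, 13.29, 13.88 and 13.62 in siCTRL. The difference of −0.63 ± 0.21 was the most negative of the 54 genes, and the groups overlapped through siBNC2 replicate 4 alone. Its homolog Tusc3 differed by −0.11 ± 0.14, and the small subunit Tmem258 by 0.11 ± 0.16. Genes for sugar donors and dolichol had 12 of 17 lower (median −0.07), from Gmppb, a subunit of the enzyme that makes GDP-mannose, at −0.27 ± 0.15 to Uap1, which makes UDP-GlcNAc, at 0.19 ± 0.16. Golgi enzymes and sugar transporters had 13 of 17 lower (median −0.09), from the mannosidase Man1c1 at −0.47 ± 0.30 to the galactosyltransferase B4galt2 at 0.16 ± 0.16. With siCTRL replicate 4 dropped Man1c1 was at −0.25, and with siBNC2 replicate 3 dropped B4galt2 was at 0.03.

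ER chaperones and ERAD genes had 12 of 15 lower and a median of −0.20. They ranged from Sel1l, a subunit of the ERAD ubiquitin ligase, at −0.49 ± 0.28 to the ER stress-induced factor Manf at 0.10 ± 0.16, and 6 of the 15 changed sign without some array. Sel1l was at −0.29 when siCTRL replicate 3 was dropped and at −0.71 when siCTRL replicate 1 was, and Manf was at 0.02 when siBNC2 replicate 3 was dropped and at 0.24 when siBNC2 replicate 4 was. The chaperones Hspa5 and Hsp90b1, which act on proteins whether or not they carry glycans, differed by −0.22 ± 0.14 and −0.19 ± 0.14, and by −0.10 and −0.08 with siCTRL replicate 3 dropped. The 8 ER stress factors had a lower mean with all arrays (median −0.17), from Creb3l1, a membrane-bound factor, at −0.54 ± 0.36 to Xbp1 at −0.03 ± 0.33. For 3 of them (Xbp1, Ddit3 and Creb3l2) the sign changed when some array was left out, and Xbp1 ranged from −0.27 to 0.27. Creb3l1 was at −0.18 with siBNC2 replicate 2 dropped and at −0.81 with siBNC2 replicate 4 dropped. Atf4 differed by −0.36 ± 0.16 and Atf6 by −0.09 ± 0.15, and these factors, like Tusc3, Hspa5 and Hsp90b1, were singled out after their values were seen. With limma 0 of these 23 genes passed over all genes, and 1 had an unadjusted p under 0.05, where 3.19% of all genes had one. A difference between the members and these lists was not tested. Since the lists were chosen with earlier results of these data known, their counts and p-values are a description.

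**Figure D5:**
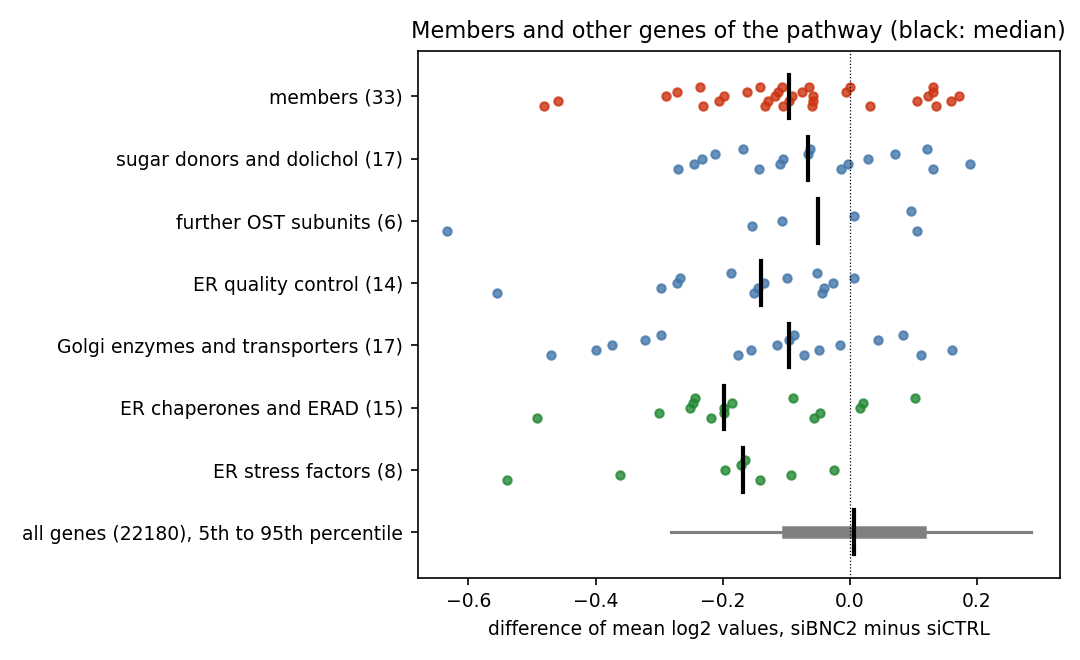
Differences in mean log2 value, siBNC2 minus siCTRL, for the members and 6 further lists (1 point per gene, number of genes in brackets, black bar at the median), with all genes at the bottom (thin line, 5th to 95th percentile, thick line, 25th to 75th). The medians of the lists lie between −0.20 and −0.05, left of the median of all genes at 0.0074.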

How the data were processed

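RNA from 4 siBNC2 and 4 siCTRL samples was biotin-labelled and put on Affymetrix mouse gene arrays, 1 per sample. The authors processed the scans with GIANT and Affymetrix Power Tools (GC correction, scaling and RMA at the core gene level), and the deposited values are log2 values per probe set. The log base is inferred from RMA. Quantile normalization within RMA removes any shift shared by most genes. No genome build is given in the sources used here, and promoter sequences come from RefSeq (GRCm38.p6).

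Of 41345 probe sets, 23521 had 1 gene symbol and were averaged into 22180 genes. Each of the 33 members had 1 probe set. Array medians lay between 6.45 and 6.50, r between arrays across genes was 0.983 to 0.996, and the number of arrays limits precision. No columns were left unused. Genes were compared with limma 3.58.1 (R 4.3.3), group as the only term, two-sided, Benjamini-Hochberg over all genes. The same fit was also run on simulated data with known changes. Only Bnc2 was also tested by exact permutation (scipy 1.17.1), or by exact sign changes where the replicate number was a block. Errors are SD of a group or SE of a difference. Some genes of the lists are not reported here.

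The members and lists were chosen with earlier results of these data known. Values per array are given for the 3 members of each step with the largest absolute difference and for Dpagt1, Stt3a, Stt3b, Calr, Canx, Pdia3 and Fut8, and for each other list the lowest and highest gene are named. Alternatives were another quantile normalization, median centring, the brightest probe set, no dim genes, the replicate number as a block, a trended robust prior, array weights, leaving out each array and leaving out both arrays numbered 4. Protein sequences were not used here.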

Additional observations from a re-analysis of the deposited data

Results flagged for a closer look

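In groups of 4 arrays, a value was marked when its gap to the nearest other array relative to the range of the group exceeded Dixon's critical ratio. Of 122 groups looked at, 8 were marked, and chance marks about 1 in 20. Among the members these were siCTRL replicate 1 for Dpagt1 (13.35, the others 13.58 to 13.62, ratio 0.863) and for Mgat2 (11.82, the others 12.17 to 12.24, ratio 0.845). They were also siCTRL replicate 4 for Alg1 (10.45, the others 10.52 to 10.53, ratio 0.888) and for Alg3 (12.37, the others 13.03 to 13.07, ratio 0.945). For the mean deviation of the Golgi genes it was siBNC2 replicate 4 (0.13, the others −0.094 to −0.086, ratio 0.965). Outside the members B4galt2 was marked on siBNC2 replicate 3 (8.72, the others 8.16 to 8.22, ratio 0.892) and on siCTRL replicate 2 (7.90, the others 8.24 to 8.26, ratio 0.926), and Clec4g, a dim endothelial gene, on siCTRL replicate 3 (4.90, the others 5.23 to 5.26, ratio 0.906).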

How the results depend on the processing

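Limma gave 0 genes past an adjusted p of 0.05 under each alternative run, with 589 to 1207 genes of 22180 at an unadjusted p under 0.05, and 312 of 13308 without dim genes. The count of members with a lower mean was 23 after another quantile normalization and 25 after median centring, and 20 to 25 without single arrays. Without single arrays the median of all members ranged from −0.16 to −0.019 and that of the calnexin cycle from −0.28 to −0.11, whereas those of assembly, oligosaccharyltransferase and Golgi crossed 0. The Bnc2 difference was −1.66 to −1.16 without single arrays and −1.49 without both arrays numbered 4, where the exact test cannot reach 0.05 (p = 0.0571 and p = 0.100, the smallest possible).

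Deviations from the group means correlated between same-numbered arrays with r = −0.0010 (number 3) to 0.67 (number 4), and the labels do not tie a number to a round, so that the numbers were not used as pairs. Replicate 3 of siBNC2 correlated best with siCTRL replicate 1 (0.40). With the replicate number as a block, all differences were as given, 0 genes passed and 1207 had an unadjusted p under 0.05, and Bnc2 at −1.33 had p = 0.125, the smallest that exact sign changes over 4 numbers allow. The replicate block left 24 members lower.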
